A study of Mus musculus with 4 samples.

Results

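The transmembrane adenylyl cyclases are the membrane enzymes that make cyclic AMP (cAMP) from ATP, and all 9 mouse genes, Adcy1 to Adcy9, are described here out of 52636 Ensembl genes with deposited values. They were chosen by name, with their values already known, and Adcy1 in particular because its counts disagreed between the libraries. The study recovered RNA bound by YTHDF2, a reader of m6A-modified mRNA, from the hippocampus of wild-type C57BL/6 mice at postnatal day 40, with 2 input libraries of lysate RNA and 2 libraries of RNA immunoprecipitated with an antibody against YTHDF2. The values below are those of the 2 input libraries, called shallower (2563069 counts) and deeper (3334451 counts) because the table's column names do not say which replicate each is. The immunoprecipitated libraries were not analysed here, so nothing is said of binding by YTHDF2. The labels name no treatment, sex or transgene, and do not state if 1 animal, several or a pool supplied the inputs, so their spread may be technical. Only 1 group is analysed, and differences are therefore given without tests or p-values.

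Each of these enzymes has a pair of cytoplasmic catalytic domains that must come together to form the active site. All are activated by the stimulatory G protein, and they differ in what else controls them. Adcy1, Adcy3 and Adcy8 encode forms that calcium and calmodulin can stimulate, Adcy2, Adcy4 and Adcy7 forms that G protein beta-gamma subunits can enhance, Adcy5 and Adcy6 forms that calcium and the inhibitory G protein inhibit, and Adcy9 a form with little response to forskolin. In the hippocampus, the calcium-stimulated forms are known for linking neuronal calcium entry to cAMP in synaptic plasticity and memory.

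The coding sequences show how alike the genes are and whether reads can be told apart. The 60 coding bases with the most positions in common are given here, in frame, from the longest protein-coding GENCODE M21 transcript of each gene. This stretch encodes part of the second catalytic domain. Capitals mark the 36 bases that are the same in all 9 genes.
Adcy1: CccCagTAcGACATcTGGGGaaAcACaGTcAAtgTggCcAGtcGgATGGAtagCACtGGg
Adcy2: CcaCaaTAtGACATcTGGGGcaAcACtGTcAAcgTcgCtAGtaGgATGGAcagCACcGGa
Adcy3: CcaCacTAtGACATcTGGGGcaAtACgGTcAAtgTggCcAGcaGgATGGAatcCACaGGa
Adcy4: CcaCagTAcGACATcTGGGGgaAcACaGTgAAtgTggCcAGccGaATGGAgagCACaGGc
Adcy5: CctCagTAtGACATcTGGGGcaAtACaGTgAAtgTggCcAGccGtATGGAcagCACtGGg
Adcy6: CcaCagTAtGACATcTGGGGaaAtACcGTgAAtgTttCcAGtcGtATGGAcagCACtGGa
Adcy7: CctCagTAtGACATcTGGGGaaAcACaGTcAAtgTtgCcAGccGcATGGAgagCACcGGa
Adcy8: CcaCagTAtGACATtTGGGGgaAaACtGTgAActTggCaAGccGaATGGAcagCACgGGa
Adcy9: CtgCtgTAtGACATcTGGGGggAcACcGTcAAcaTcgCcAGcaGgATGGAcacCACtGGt
On GRCm38 these stretches lie at chr11:7167111-7167170 in exon 19 of Adcy1 (plus strand), chr13:68625806-68625865 in exon 24 of Adcy2 (minus) and chr12:4212126-4212185 in exon 21 of Adcy3 (plus). They lie at chr14:55769391-55769450 in exon 25 of Adcy4 (minus), chr16:35302314-35302373 in exon 20 of Adcy5 (plus) and chr15:98592691-98592750 in exon 21 of Adcy6 (minus). For the others they are chr8:88327420-88327479 in exon 27 of Adcy7 (plus), chr15:64699514-64699573 in exon 18 of Adcy8 (minus) and chr16:4288357-4288416 in exon 12 of Adcy9 (minus). Differences are scattered through even this stretch. Over the whole alignment 19.6% of the 2292 ungapped columns were identical in all 9 genes. Pairwise coding identity ran from 46.4% (Adcy3 and Adcy9) to 69.3% (Adcy5 and Adcy6), with a median of 51.1% over 36 pairs. Adcy2 with Adcy4 (61.3%) and Adcy2 with Adcy7 (60.6%) came next, so the 3 closest pairs fell within the beta-gamma and calcium-inhibited classes. The pairs of calcium-stimulated genes lay near or below the median, with 51.4% for Adcy1 and Adcy8, 50.9% for Adcy3 and Adcy8 and 48.9% for Adcy1 and Adcy3. Adcy1 was closest to Adcy5 (54.6%).

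Exact sequence sharing was low for most members. Adcy5 and Adcy9 had 0% of their transcript 31-mers in transcripts of any other gene, and Adcy1 had 0.0240%. The exceptions came from overlapping genes. Adcy3 shared 20.1%, nearly all with Cenpo, which ends inside it on the opposite strand. Cenpo had 52 counts in the shallower and 44 in the deeper library, the order in which paired values are given throughout. Adcy6 shared 8.28%, mostly with the antisense gene Gm29331, which had 0 counts in both. Adcy2 shared 3.83% with the antisense gene Gm35161 (6 and 2 counts). Whether counting used strand is not stated in the labels or headers, which makes the count of Adcy3 uncertain.

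By FPKM the 2 input libraries gave different answers to which cyclase mRNA is most abundant. Adcy1 led in the shallower library, while Adcy9 and Adcy5 led in the deeper one and were nearly equal between the libraries. Adcy4 had no count in either. Levels of different genes are compared below by FPKM (fragments per kilobase of gene model and per 1e6 counts), and the same gene is followed across libraries by count and by CPM (counts per 1e6 counts of the library).

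**Figure D1:**
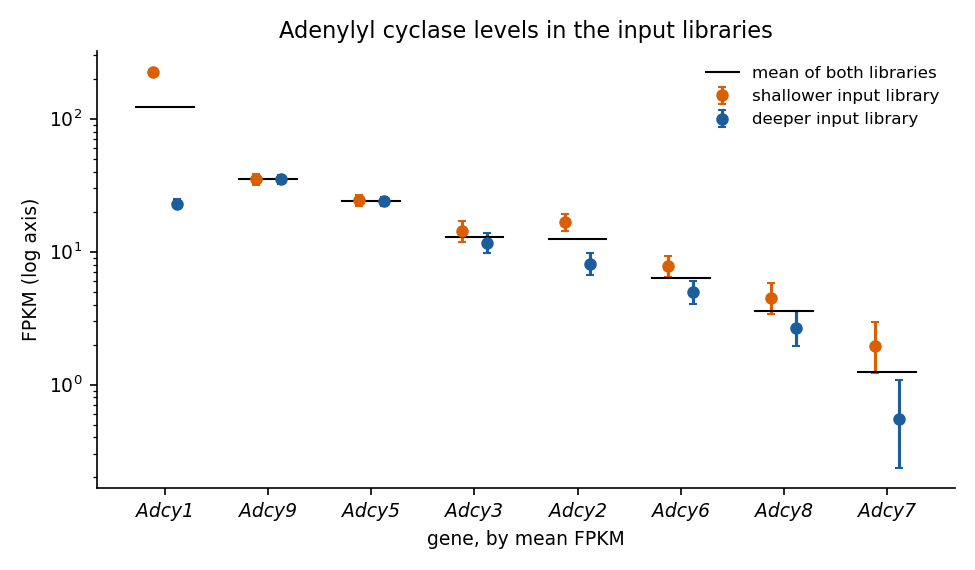
FPKM (log axis) of the 8 detected adenylyl cyclase genes in the shallower (orange) and deeper (blue) input library, with 95% Poisson intervals of the counts and the mean of both libraries as a line. Adcy1 is at 223.5 and 22.9 FPKM, while Adcy9 and Adcy5 are close together between the libraries; Adcy4 is at 0 in both and is not drawn.

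Adcy9 (chr16:4287529-4420498, minus strand) and Adcy5 had nearly the same FPKM in both libraries. Adcy9 had 418 counts in the shallower and 541 in the deeper library, and 35.1 and 34.9 FPKM (35.01 ± 0.128, SD, n = 2). Adcy5 (chr16:35154877-35305738, plus strand), the main cyclase of striatal neurons, had 438 and 558 counts and 24.4 and 23.9 FPKM (24.1 ± 0.358). By deposited FPKM the ranges of Adcy9 and Adcy5 did not overlap, and per base of the longest transcript Adcy9 also lay higher in both libraries. That order rests on the length divided by. The deposited FPKM uses 4646 bases for Adcy9, the mean of its annotated transcripts. For Adcy5 it uses 7007, near its longest, where the mean is 3691. By CPM, without a length, Adcy5 was slightly higher (170.9 and 167.3 against 163.1 and 162.2). Of 6 striatal marker genes 2 reached 5 CPM, with none at 0 in both libraries, and the 6 summed to 40.6 and 25.2 FPKM. Most of that sum came from 1 gene, Ppp1r1b (30.1 and 17.4 FPKM), and the others each had at most 24 counts in a library. The part of striatal cells in the level of Adcy5 was not tested.

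Among the calcium-stimulated forms, Adcy1 (chr11:7063489-7178506, plus strand) had 4753 counts in the shallower and 634 in the deeper library. That is 1854 CPM (95% Poisson interval 1802 to 1908) against 190.1 CPM (176 to 206), or 223.5 against 22.9 FPKM (123 ± 142, SD, n = 2). By CPM it held rank 10 among nuclear protein-coding genes in the shallower library but rank 771 in the deeper, so its mean describes neither library. Adcy3 (chr12:4133103-4213525, plus strand), known for its role in olfactory neurons and primary cilia, had 118 and 125 counts and 14.3 and 11.6 FPKM. Adcy8 (chr15:64697084-64922296, minus strand), the other form that calmodulin strongly stimulates, had 58 and 45 counts and 4.50 and 2.68 FPKM. In both libraries Adcy8 lay below Adcy1, Adcy9, Adcy5, Adcy3, Adcy2 and Adcy6.

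Of the forms that beta-gamma subunits enhance, Adcy2 (chr13:68620043-68999541, minus strand) carried nearly all of the signal, with 179 and 114 counts and 16.6 and 8.12 FPKM. Adcy7 (chr8:88272403-88329962, plus strand), a form abundant in immune cells including microglia, had 22 and 8 counts and 1.95 and 0.546 FPKM. All 5 microglial markers tested reached 5 CPM and summed to 189 and 181 CPM. Adcy4 (chr14:55769057-55784095, minus strand), known from endothelium and other peripheral tissue, had 0 counts in both libraries. A count of 0 allows up to 3 counts, which is 1.17 and 0.900 CPM, or 0.334 and 0.257 FPKM over its longest protein-coding transcript of 3501 bases. Endothelial markers were scarce too, with 1 of 5 at 5 CPM and sums of 15.996 and 14.7 CPM. In whole tissue, fewer cells of a type and less RNA per cell cannot be told apart. Of the calcium-inhibited pair, Adcy6 (chr15:98589973-98610076, minus strand), which is broadly expressed and prominent in heart, had 120 and 99 counts and 7.78 and 4.93 FPKM, below Adcy5 in both libraries.

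By mean FPKM the order was Adcy1, Adcy9, Adcy5, Adcy3, Adcy2, Adcy6, Adcy8 and Adcy7. The ranges over the libraries overlapped for Adcy1 and Adcy9 and for Adcy3 and Adcy2, so neither pair can be ordered. The other 5 neighbouring pairs did not overlap, but the range of Adcy1 (22.9 to 223.5 FPKM) also took in that of Adcy5 (23.9 to 24.4). Adcy1 was at 6.37 times the FPKM of Adcy9 in the shallower library but at 0.656 times in the deeper. The divisor matters for Adcy1. The deposited FPKM uses 8296 bases for it, the mean of its annotated transcripts, and its full-length transcript has 12259. Per base of the longest transcript Adcy1 had 151 and 15.5 FPKM and Adcy9 32.8 and 32.6, which leaves Adcy1 at rank 1 in the shallower and rank 3 in the deeper library. On that scale Adcy2 (16.6 and 8.12) lay above Adcy3 (8.19 and 6.67) in both libraries.

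**Figure D2:**
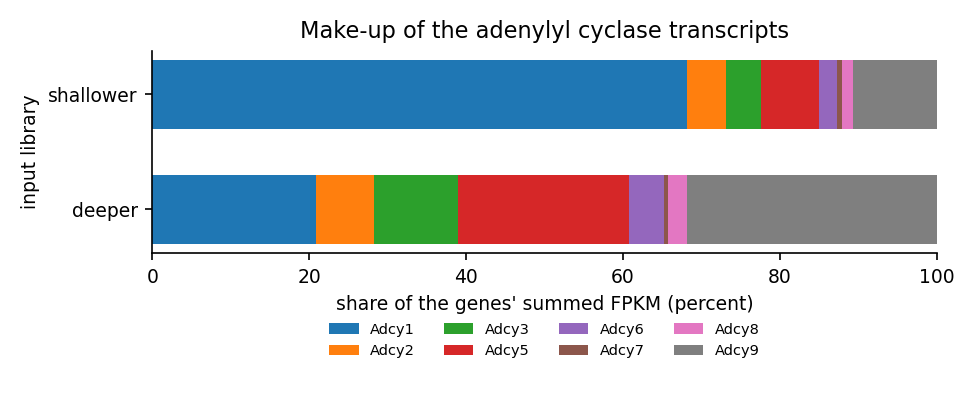
Share of the summed FPKM of the 9 genes held by each member in each input library (bars run from 0 to 100 percent; Adcy4 has none). Adcy1 takes 68.1% in the shallower and 20.9% in the deeper library, and Adcy9 and Adcy5 take larger shares in the deeper.

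The make-up of the family differed between the libraries mainly in the part held by Adcy1. The 9 genes summed to 328 FPKM in the shallower and 109.6 in the deeper library, but to 104.6 and 86.7 without Adcy1. Its own part of the sum was 68.1% and 20.9%. Without it, Adcy9 held 33.6% and 40.3% of the rest and the calcium-inhibited pair 30.8% and 33.2%. Adcy3 and Adcy8 together held 18.0% and 16.5%, and the beta-gamma class 17.7% and 9.99%. By deposited FPKM the order of the classes without Adcy1 was the same in both libraries. Per base of the longest transcript, Adcy3 with Adcy8 lay below the beta-gamma class in the shallower library (11.4 against 18.0 FPKM) and beside it in the deeper (8.60 against 8.52), so these 2 classes are not ordered. With Adcy1, the calcium-stimulated class went from 73.8% to 34.0%.

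The difference between the libraries was measured for each gene as the log2 ratio of deeper over shallower, after adding 0.5 CPM and scaling by TMM (edgeR's trimmed mean of M values), and its exact binomial interval (95%) covers counting error only. Adcy1 was at -3.14 (-3.26 to -3.02), 8.80 times higher in the shallower library. Of the 6 members at a mean of 20 CPM or more, 1 was at least 2-fold apart, Adcy1, beside 3.93% of all 6915 such genes. Since the disagreement was a reason for choosing Adcy1, nothing is read from that count. The median ratio of the 6 was -0.33, and -0.15 without Adcy1, beside 0.04 over all genes at that level. For Adcy1 itself, 17 of the 6915 genes had a larger ratio in either direction, and 1 of the 212 genes at 500 CPM or more did. Adcy1 was chosen for this disagreement, so nothing is read from its place among those genes either. It reached a mean of 500 CPM only through the shallower library (1854 and 190.1 CPM).

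**Figure D3:**
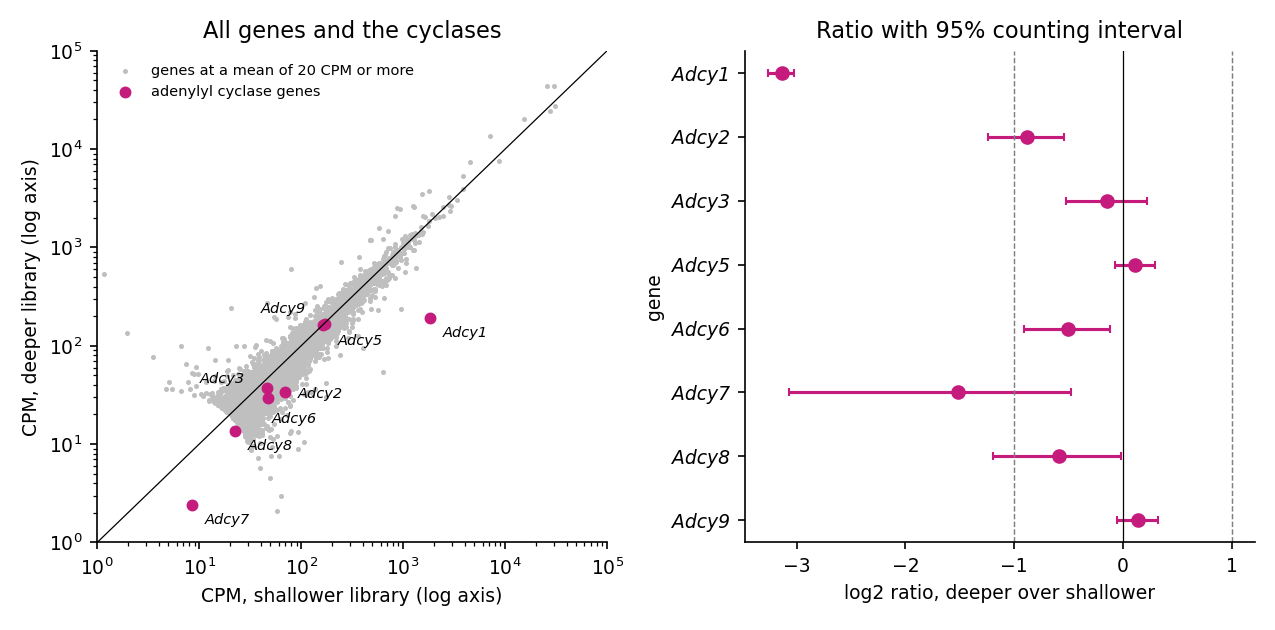
Left, CPM in the deeper against the shallower input library (log axes) for genes at a mean of 20 CPM or more with a count in both (grey; a few fall outside the axes) and for the 8 detected adenylyl cyclase genes (magenta), with the line of equality. Right, the log2 ratio of each member with its 95% binomial counting interval, where dashed lines mark a 2-fold difference; Adcy1 is at -3.14 and the intervals of Adcy3, Adcy5 and Adcy9 include 0.

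The other members formed a graded series. Adcy2 was at -0.88 (-1.24 to -0.54), Adcy8 at -0.58 (-1.20 to -0.01) and Adcy6 at -0.51 (-0.91 to -0.12), all below 0 by these intervals. The upper bounds of Adcy6 and Adcy8 rose to 0.0046 and 0.0040 with the GC trend removed, and that of Adcy8 to 0.048 with DESeq2 size factors, while the interval of Adcy2 lay below 0 under each of these settings. Adcy7 was at -1.52 (-3.07 to -0.47). With it and Adcy1, 2 of the 8 members at 5 CPM or more (a level that leaves out Adcy4) were at least 2-fold apart, beside 9.53% of all 12218 such genes. Nothing is read from that count. Adcy1 was chosen for its disagreement, and Adcy7 reached a mean of 5 CPM only through the shallower library (8.58 and 2.40 CPM). Adcy7 rests on 22 and 8 counts. Intervals of Adcy3 (-0.53 to 0.22), Adcy5 (-0.07 to 0.30) and Adcy9 (-0.05 to 0.32) included 0 with TMM scaling. With the GC trend removed, those of Adcy5 (0.11 to 0.47) and Adcy9 (0.12 to 0.49) lay above 0. With DESeq2 size factors that of Adcy9 (0.013 to 0.39) did too, while that of Adcy3 included 0 under each of these settings. In all, 6 of the 8 detected members lay below 0, 8 without TMM scaling (where the median of all genes moved from 0.04 to -0.10) and 5 with the trend over GC content removed. Relative to the median of all genes, 6 lay below it with TMM scaling and 6 without. The share of all genes below 0 is not given here, so nothing is read from these counts of members. Counting intervals left out 0 for other genes too, such as Gnas (0.21 to 0.45) and Gabbr1 (-0.31 to -0.10) of the cAMP pathway.

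Several measured properties stand beside the difference in Adcy1. No annotated gene overlaps it, and the next gene on the chromosome, Gm11985, lies 4647 bases away with 7 and 0 counts. Assignment of reads to other genes was not tested. Transcript GC content was 52.6% for Adcy1 and 50.8% to 59.5% for the family, and with the GC trend removed its ratio was -3.08. Adcy1 has the longest annotated 3′ untranslated region of the family, 8791 bases against 84 to 2377 for the others. Among protein-coding genes at 20 CPM or more, 3.90% of the 538 with at least 5000 such bases were at least 2-fold apart, and 3.69% of the 5768 with fewer. The median log2 ratio of those 538 was 0.22, beside 0.04 over all 6915 genes of any type at that level. The part of this length in the difference in Adcy1 was not tested.

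Adcy1 is known to be abundant in dentate granule cells, pyramidal cells, thalamus and cerebellum, whose markers were summed beside it. Dentate granule cell markers, all 4 at 5 CPM or more, summed to 352 and 370.4 CPM. Pyramidal cell markers, 7 of 8 at that level, summed to 661 and 638 CPM. Thalamic markers (4 of 5) summed to 96.8 and 94.8 CPM. Cerebellar markers (2 of 5) summed to 44.9 and 30.9 CPM, all of it from Pcp4 and Calb2, with Pcp2, Gabra6 and Cbln3 at 0 in both libraries. The granule and pyramidal cell markers of the labelled tissue were thus present in both libraries, and the part of regional make-up in the difference in Adcy1 was not tested.

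Among 543 named genes within 4-fold of its mean CPM, likeness was measured as the difference in log2 ratio, a single value over 2 libraries. Closest was Snph, a neuronal protein that anchors axonal mitochondria, with 1614 and 180 counts and a ratio 0.25 from that of Adcy1. The next were Vamp2, the synaptic vesicle SNARE (2456 and 791 counts, 1.27 away), Itm2c (1442 and 765, 1.99 away) and Agap2 (3458 and 2045, 2.15 away). Beyond Snph, none of these 543 genes was within a log2 unit of Adcy1. Genes outside that window of mean CPM were not compared. Of all 6915 genes at a mean of 20 CPM or more, 47 were at least 4-fold apart in either direction. The ratio of 10 lay below that of Adcy1.

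The genes around the cyclases in the cAMP pathway were described with 14 lists of 119 genes, of which 92 reached 5 CPM and 66 reached 20 CPM. At that level 3 were at least 2-fold apart with the higher value in the shallower library, against 0 with it in the deeper, 4.55% together, beside 1.95% and 1.98% of all genes (3.93% together). Their median log2 ratio was 0.07, and the list medians ran from -0.15 for protein kinase A to 0.32 for inhibitory G protein alpha subunits. No list was tested.

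**Figure D4:**
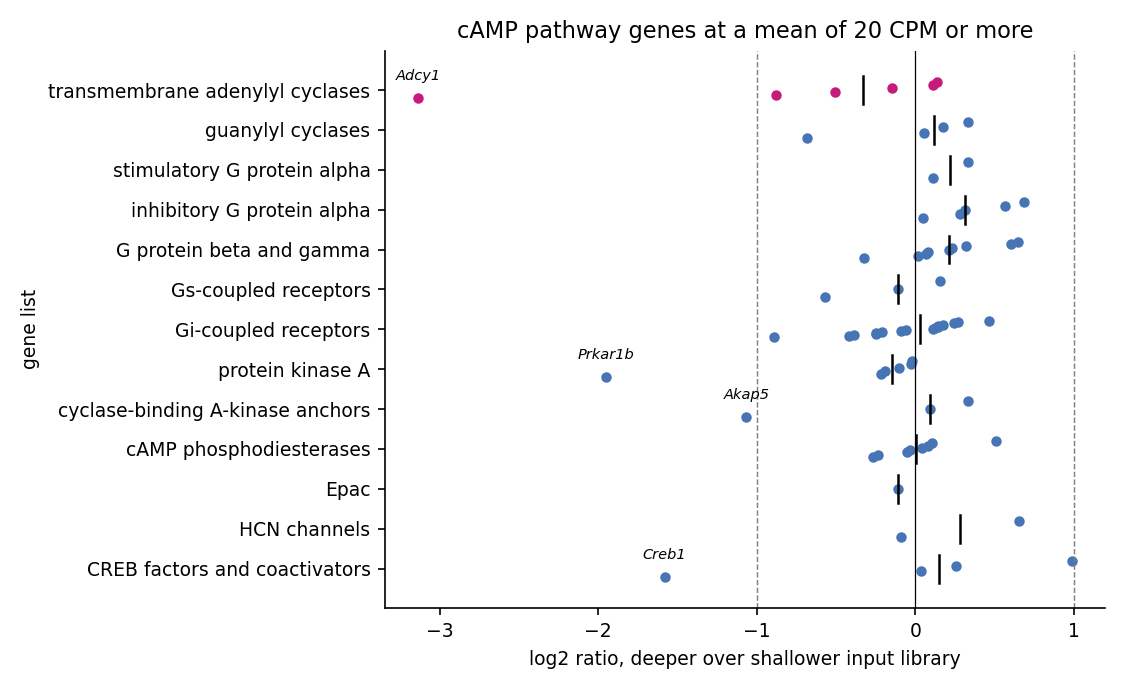
Log2 ratio of the deeper over the shallower input library for each cAMP pathway gene at a mean of 20 CPM or more (points; adenylyl cyclases in magenta), by list, with the list median as a bar and dashed lines at a 2-fold difference; the calmodulin list is not drawn. Adcy1, Prkar1b, Creb1 and Akap5 lie at or below -1, and no gene lies above 1.

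Upstream of the cyclases, the stimulatory alpha subunit gene Gnas had 901 and 1334 counts (183 ± 16.7 FPKM, SD, n = 2) and Gnal, its olfactory and striatal relative, 269 and 342 (19.1 ± 0.311). Other genes hold 19.9% of the 31-mers of Gnas, whose count is therefore uncertain. The inhibitory subunit genes were led by Gnao1 (312 ± 15.2 FPKM), Gnai2 (81.3 ± 6.93) and Gnai1 (37.3 ± 9.85). Both alpha lists were within 2-fold for all their members. Of the beta and gamma genes, whose products act on Adcy2, Adcy4 and Adcy7, Gnb1 (281 ± 9.49 FPKM) was highest and Gnb3 was at 0. Among receptors, Gs-coupled genes summed to 174 and 138 FPKM, led by the PACAP receptor gene Adcyap1r1 (86.7 ± 10.8), with Vipr2 at 0. Gi-coupled genes summed to 940.2 and 802 FPKM, led by the GABA-B receptor genes Gabbr1 (282 ± 48.6) and Gabbr2 (152 ± 0.241).

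Downstream, the protein kinase A list held 1 gene at least 2-fold apart. Prkar1b, a regulatory subunit enriched in brain, had 1033 and 313 counts (log2 ratio -1.95, 95% interval -2.14 to -1.77). The other 5 subunit genes were within 2-fold, with Prkar1a highest at 350.0 ± 41.9 FPKM. Akap5, which anchors the kinase beside cyclases at synapses, had 215 and 120 counts (-1.07, -1.41 to -0.75). Creb1, the transcription factor that the kinase phosphorylates, had 140 and 54 counts (-1.58, -2.09 to -1.15). These 3, with Adcy1, were the members of the pathway at 20 CPM or more that were at least 2-fold apart. The cAMP phosphodiesterases (8 at 20 CPM), the HCN channels (2) and the Epac genes (1) had none at that level. Members below it were not counted, among them Pde10a (mean 19.9 CPM, 78 and 31 counts, log2 ratio -1.52). The phosphodiesterases summed to 369 and 336 FPKM, with Pde2a highest at 166 ± 8.30, although 63.8% of its 31-mers are shared with other genes.

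Other nucleotide cyclases give a scale for the family. The soluble adenylyl cyclase gene Adcy10, whose product responds to bicarbonate, had 10 and 8 counts (0.977 ± 0.330 FPKM), close to Adcy7. The 11 guanylyl cyclase genes, which make cyclic GMP, summed to 108.5 and 102.6 FPKM, led by the nitric oxide receptor subunit gene Gucy1b1 (56.1 ± 0.904), with Gucy2c, Gucy2d and Gucy1b2 at 0. Their sum was near that of the 8 transmembrane adenylyl cyclases without Adcy1 (95.7 ± 12.6 FPKM). With Adcy1, all 9 summed to 328 FPKM in the shallower library, far above the guanylyl cyclases, but to 109.6 in the deeper, near them.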

How the data were processed

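RNA of 4 samples in 2 groups (input and YTHDF2 immunoprecipitation, 2 each) is labelled; values of the 2 input libraries were analysed. The authors deposited raw read counts per Ensembl gene and FPKM values. BWA 0.7.12, MACS2 2.1.0, HOMER and GRCm38 appear per the submitters' processing notes, with no role; the read counter, strand setting and annotation behind the tables: not given in the sources used here. FPKM as deposited is the count over the library total and over 1 length per gene, equal in both libraries for 100% of 18734 genes with counts in both (tolerance 0.01 bases). For 5 of the 8 members with a count that length was within 1 base of the mean of the GENCODE M21 transcripts, which are on GRCm38.

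GENCODE M21 named 52403 of 52636 IDs, all 9 members among them. TMM factors (edgeR 4.0.16, 1.05 and 0.951, genes with a mean of 5 CPM or more), DESeq2 1.42.0 size factors, Poisson and binomial intervals (scipy 1.17.1), a MAFFT 7.526 alignment of coding sequences and shared 31-mers (both strands, all transcripts) were computed. The GC trend was the median ratio of the 200 genes nearest in GC content. The ratio computation was tested on simulated data. Protein sequences were not used here. The members and lists were chosen with earlier results of these data known. From each pathway list the 3 genes highest in FPKM, genes at least 2-fold apart at 20 CPM and genes at 0 could be named; the 4 genes most like Adcy1, without Gm or Rik names, and overlapping or adjoining genes were also named. Marker genes at 0, Ppp1r1b and Pde10a were named after their values were seen. The genes named as sharing 31-mers with a member were those that overlap it. The calmodulin list is counted in the pathway totals, and its genes are not reported here.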

Additional observations from a re-analysis of the deposited data

How the results depend on the processing

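The log2 ratio of Adcy1 ran from -3.28 (without TMM factors, outside its counting interval) to -3.08 (DESeq2 size factors, and with the GC trend removed). Adding 0.1 or 2 CPM left it inside that interval. The number of genes at least 2-fold apart was 1164 at a minimum of 5 CPM, 88 at 50 CPM and 6785 with no filter, against 272 at 20 CPM. These settings test different numbers of genes. The rank of Adcy1 by FPKM was 1 for the mean of both libraries, 1 in the shallower alone and 3 in the deeper alone. Per base of the longest transcript Adcy1 held the same ranks. Its share of the summed FPKM was 44.5% as a mean of both libraries and 39.0% by the longest transcript. Of the other members, no ratio left its counting interval under any of the 5 alternatives. Counting intervals under the other scalings were added after seeing the data. Signs did turn: Adcy5 (0.11) and Adcy9 (0.14) were at -0.03 and -0.01 without TMM factors, and Adcy3 (-0.15) at 0.02 with the GC trend removed. Scaling to nuclear protein-coding counts moved the CPM of Adcy3, Adcy5, Adcy6 and Adcy9 by more than their spread, to 56.5, 229.6, 51.6 and 221. No paired analysis was possible because only 1 of the groups was analysed and its columns carry no replicate number of the labels. Depth limits Adcy4 (0 counts), Adcy7 (22 and 8) and Adcy10 (10 and 8) most.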
